A study of Mus musculus with 7 samples.

Results

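The transcripts of 10 transcription factors known from the mouse oocyte were followed through meiotic maturation, with and without a ligand of RNA G-quadruplexes. The set was chosen by gene symbol as Sohlh1, Sohlh2, Figla, Nobox, Lhx8, Tbpl2, Gtf2a1l, Pou5f1, Sall4 and Foxo3, and it makes up 10 of the 25908 entries used from each library. Of these, 9 passed the filter on low values and were tested, and Sohlh1 did not pass. The 7 Smart-seq2 libraries each came from 10 oocytes of C57BL/6 females that had received PMSG, a gonadotropin that stimulates follicle growth. In 2 libraries the oocytes were still held in the germinal vesicle (GV) stage, and the labels list these as control with treatment NO, although the study's methods describe DMSO for GV controls. There were 3 libraries of metaphase II (MII) oocytes matured in culture with the solvent DMSO, and 2 libraries of MII oocytes matured with BYBX, which the labels list as "Treat" with no dose. BYBX is a fluorescent ligand that binds and stabilizes RNA G-quadruplexes (rG4s), 4-stranded folds of guanine-rich RNA. No transgene or deletion is named for any group, and each library is a pool, so differences between single oocytes cannot be seen. Nothing says that the libraries of a group came from separate females, so p-values measure only the spread between these libraries.

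A fully grown GV oocyte makes almost no new RNA. Its transcripts were laid down during growth, under factors such as FIGLA, NOBOX, LHX8 and the SOHLH proteins, and many of them are translated, deadenylated and degraded when meiosis resumes. The mRNA of a factor in a mature oocyte is therefore a stored message whose level is set by stability and not by new synthesis, and libraries primed with oligo-dT follow its polyadenylated form. A lower value can thus be less RNA or a shorter tail, and the 2 cannot be told apart in these data.

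The values are FPKM, fragments per length of transcript and per sequenced library, which the authors scaled to RNA spike-ins and to the GV samples of each batch. Values over all entries summed to 402113 to 489569 FPKM in the GV libraries, between 109732 and 127254 in the DMSO group of MII libraries and between 201482 and 246710 in the BYBX group. The read depth is unknown, and which batch a library belonged to is not given in the sources used here, so batch and group cannot be told apart. All 12 oocyte markers were at 1 FPKM or more on average in every group, with summed levels of 14277 to 18099 FPKM in GV, 3114 to 4009 in MII with DMSO and 7808 to 9052 in MII with BYBX. The 16 granulosa and cumulus cell markers summed to 10.4 to 18.3, 2.40 to 2.78 and 4.39 to 5.31 FPKM, and Ptx3 was listed at 0 in every library. The erythrocyte and leukocyte markers summed to at most 2.07 FPKM in any library, with Ptprc, which marks leukocytes, listed at 0 in all 7. The summed levels of the oocyte and granulosa lists had the same order of groups as most factors below, and their part in the results was not tested.

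Sequence features of the factors' transcripts are shown first, because BYBX binds rG4s and because elements near the 3′ end act in polyadenylation and translation of stored messages. The longest protein-coding transcript of each gene was read from the GENCODE vM21 annotation of GRCm38, the build called mm10. The rG4 motif searched on the transcript strand had 4 stretches of 3 or more G, and the gaps between them held 1 to 7 bases. Of the 8769 tested entries that could be matched to a transcript, 18.7% held it. Foxo3 held it in the 3′ untranslated region (UTR), in exon 4 at chr10:42185744-42185758 on the minus strand. The match is printed 5′ to 3′, with the runs of G in capitals. A gap could hold any base, G included, so a long run of G can count as several stretches, as it does here.
Foxo3 rG4 motif: GGGGGGGGGGGcGGG
With stretches of 2 or more G the motif was present in 9 of 10 factors, all but Tbpl2, and in 97.2% of the matched entries. None of Figla, Nobox and Lhx8, whose differences below were the largest of the set, held the stricter motif, which most matched entries also lack. A link between the motif and the differences was not tested. A match is a description of the letters and says nothing of whether the RNA folds in the oocyte.

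The cytoplasmic polyadenylation element, searched as TTTTAT or TTTTAAT in the last 100 bases of the transcript, was found only in Sohlh2, compared with 20.2% of matched entries. Sohlh2 held 2 matches. The one printed below ends 5 bases from the transcript end, and so lies 3′ of the poly(A) signal, which ends 21 bases from it. Whether it acts as an element was not tested. The poly(A) signal, searched as AATAAA or ATTAAA in the last 40 bases, was found in 8 of 10 factors, all but Nobox and Tbpl2, and in 77.6% of matched entries. TTTTAAT can share bases with AATAAA. The windows below show the element nearest the 3′ end in capitals. They are given for Figla and Lhx8, which differed most between stages among the factors with a signal, and for Sall4, Sohlh2 and Foxo3, which differed least. Figla, Lhx8 and Sohlh1 carried the variant ATTAAA, and Sall4, Sohlh2, Foxo3 and Pou5f1 carried AATAAA. Gtf2a1l carried both, with shared bases, and its AATAAA was the nearer to the 3′ end. The share of each variant over all entries was not computed, and a link between variant and difference was not tested.
Figla poly(A) signal, chr6:86020958-86020987, plus strand: atgtaaaatataATTAAAatgagatgatat
Lhx8 poly(A) signal, chr3:154306301-154306330, minus strand: catcctaagttcATTAAAcactttgcatcc
Sall4 poly(A) signal, chr2:168748341-168748370, minus strand: gtaaggtctgaaAATAAAgtgaatgttttc
Sohlh2 poly(A) signal, chr3:55209919-55209948, plus strand: attgttttgtttAATAAAatgttttctctt
Foxo3 poly(A) signal, chr10:42181850-42181879, minus strand: atgacgcatgtaAATAAAgctttggtgaca
Sohlh2 polyadenylation element, chr3:55209937-55209957, plus strand: atgttttctcTTTTATaataa
All 6 windows lie in the last exon. The annotated 3′UTRs were 120 bases in Figla, 281 in Nobox and 665 in Lhx8, and 921 in Sohlh2, 1697 in Sall4 and 4490 in Foxo3. Those of Sohlh1, Gtf2a1l, Pou5f1 and Tbpl2 were 162, 163, 221 and 266 bases long. The lengths over all entries were not computed, and a link between length and difference was not tested.

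Before maturation the factors covered a wide range of levels. Per transcript length, the order in GV oocytes from high to low was Sall4, Nobox, Lhx8, Gtf2a1l, Pou5f1, Figla, Tbpl2, Sohlh2, Foxo3 and Sohlh1, and no neighbours in this order overlapped between libraries. Sall4 exceeded 99.6% of all entries in GV oocytes and Nobox 99.3%, while Foxo3 exceeded 69.2%. In MII oocytes with DMSO the order was Sall4, Gtf2a1l, Pou5f1, Nobox, Lhx8, Foxo3, Tbpl2, Sohlh2, Figla and Sohlh1. There the libraries of Gtf2a1l and Pou5f1 overlapped, as did each neighbouring pair from Nobox down to Sohlh2, and Figla with Sohlh1. In MII oocytes with BYBX the order was Sall4, Nobox, Gtf2a1l, Pou5f1, Lhx8, Figla, Tbpl2, Foxo3, Sohlh2 and Sohlh1. Overlap between neighbours was found there for Gtf2a1l with Pou5f1, Pou5f1 with Lhx8, Figla with Tbpl2 and Tbpl2 with Foxo3. Figla thus exceeded 90.9% of entries in GV oocytes, 59.2% in MII oocytes with DMSO and 87.5% in those with BYBX.

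**Figure D1:**
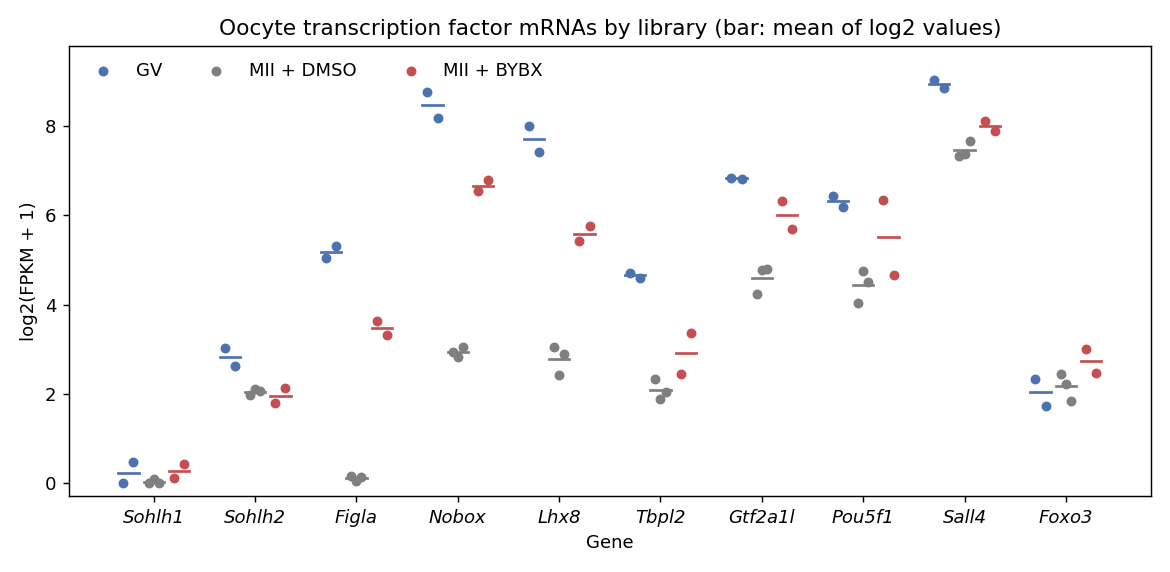
Level of each of the 10 factors, as log2(FPKM + 1), in every library of GV oocytes (n = 2), MII oocytes with DMSO (n = 3) and MII oocytes with BYBX (n = 2). Points are libraries and bars are the means of the log2 values. The points of Figla, Nobox and Lhx8 form 3 separate groups, with MII with BYBX between the other groups, while those of Foxo3 and Sohlh1 in GV and MII with DMSO overlap. The share of all tested entries that separate in this way was not computed.

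The first comparison asked how the transcripts of the factors differed between GV and mature oocytes. In MII oocytes with DMSO, 8 of the 9 tested factors were lower than in GV oocytes and none was higher, by limma on log2(FPKM + 1) at a Benjamini-Hochberg adjusted p under 0.05. Over all 9202 tested entries 88.3% were lower and 0.272% were higher, so the factors' count is close to that of transcripts in general. The median difference of the 9 factors was -2.23 on the log2 scale, beside -1.83 over all tested entries. The split depended on how the libraries were scaled. With every library set to the same total FPKM, 4 factors were lower and 3 higher, and the median over all entries was -0.56. With each library centred on its median, 3 were lower and 3 higher, and the median over all entries was 0.47. Fewer transcripts per oocyte and a change in the spike-in scaling cannot be told apart here. The differences below are given with the share of all tested entries whose difference was lower. The share of all tested entries whose groups of libraries do not overlap was not computed.

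In MII oocytes with BYBX compared with MII oocytes with DMSO, 6 of 9 factors were higher and none was lower, against 65.2% and 0.0326% of all tested entries. The median of the factors was 1.08 and that of all tested entries 0.84 on the log2 scale. With the same total FPKM 3 factors were higher and 1 was lower, with a median over all entries of 0.34, and with median centring 3 were higher and 3 lower, with a median of -0.44. In MII oocytes with BYBX compared with GV oocytes, 7 factors were lower and none was higher, against 69.2% and 0.315% of all tested entries. The medians were -0.94 for the factors and -0.99 for all tested entries. With the same total FPKM 2 factors were lower and 1 higher in that comparison, also with median centring. The 3 comparisons share libraries, so their values are set side by side and are not independent of each other.

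**Figure D2:**
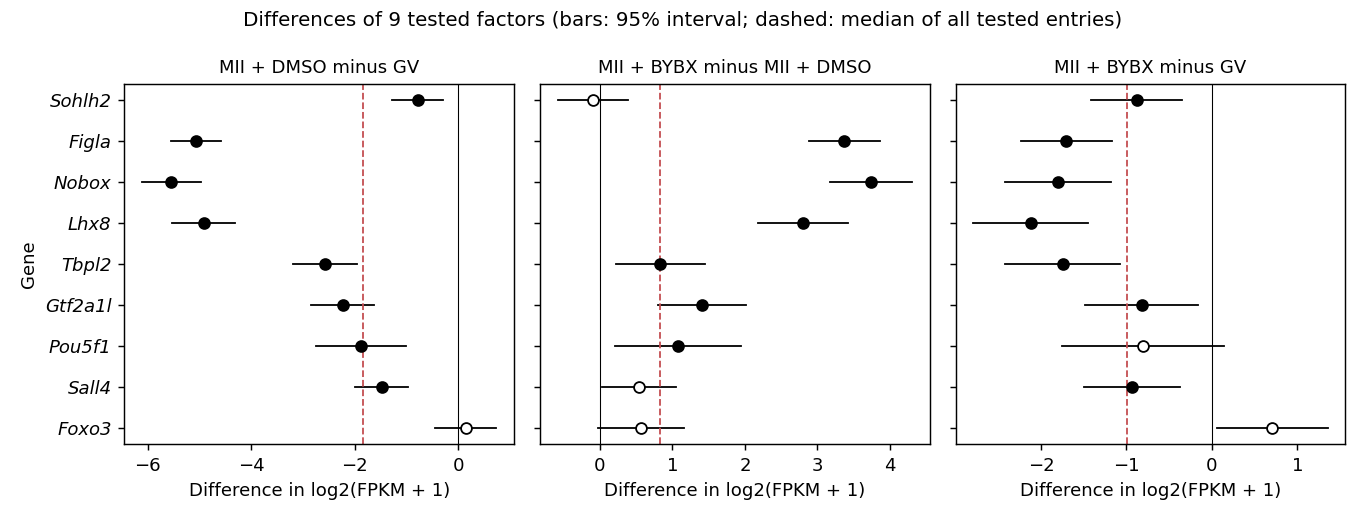
Difference in log2(FPKM + 1) of the 9 tested factors for MII with DMSO minus GV, MII with BYBX minus MII with DMSO, and MII with BYBX minus GV. Bars are 95% intervals from limma, filled points passed the adjusted p and open points did not, and the dashed line is the median of all tested entries. On the deposited scale Nobox, Figla and Lhx8 lie beyond the dashed line in all 3 panels. Under the other scalings Sohlh2, Gtf2a1l, Pou5f1 and Sall4 change sign in the left panel, Tbpl2, Pou5f1, Sall4 and Foxo3 in the middle panel, and Sohlh2, Gtf2a1l, Pou5f1 and Sall4 in the right panel.

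SOHLH1 and SOHLH2 are basic helix-loop-helix (bHLH) proteins that act early, in the oocytes of primordial follicles. Sohlh1 (chr2:25842995-25847248, minus strand, 8 exons) was listed at 0 and 0.376 FPKM in the GV libraries, at 0, 0.0627 and 0 in MII with DMSO, and at 0.0706 and 0.334 in MII with BYBX. All 7 values were under 1 FPKM. The GV libraries overlapped both other groups, and the BYBX libraries were just above the DMSO libraries. Without a filter on level, BYBX minus DMSO was 0.23 (limma adjusted p = 0.541) and DMSO minus GV -0.20 (limma adjusted p = 0.482). Sohlh2 (chr3:55182028-55209957, plus strand, 11 exons) was at 7.15 and 5.20 FPKM in GV, at 2.91, 3.28 and 3.16 in MII with DMSO, and at 2.44 and 3.34 in MII with BYBX. Both GV libraries were above all others, and the MII libraries with and without BYBX overlapped. Sohlh2 fell by 0.79 on the log2 scale in MII with DMSO (SE 0.23, limma adjusted p = 0.005, 81.4% of entries lower), but was 0.75 higher at the same total FPKM and 1.52 higher with median centring. The difference between BYBX and DMSO was -0.09 (95% interval -0.58 to 0.40, limma adjusted p = 0.723), lower than that of all but 1.72% of tested entries. With the same total FPKM this difference was -0.82 (limma adjusted p = 0.0122) and with median centring -1.37 (limma adjusted p = 0.000492).

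FIGLA, a further bHLH protein, is required for primordial follicles to form and activates the zona pellucida genes. Figla (chr6:86016171-86020996, plus strand, 3 exons) was at 32.1 and 38.8 FPKM in the GV libraries. It was at 0.114, 0.0324 and 0.0929 FPKM in MII with DMSO, and at 11.4 and 9.03 in MII with BYBX. The 3 groups did not overlap, and Figla was the only tested factor under 1 FPKM in any group. The means were 35.5 ± 4.71 (SD, n = 2), 0.0798 ± 0.0423 (SD, n = 3) and 10.2 ± 1.71 FPKM (SD, n = 2), so that the DMSO mean was 445 times lower than the GV mean, a ratio that rests on values near 0 whose read counts are unknown. On the log2(FPKM + 1) scale, which understates such a change, Figla fell by 5.07 (SE 0.22, limma adjusted p = 3.83e-10), with 3.50% of entries lower. It was higher with BYBX than with DMSO by 3.37 (SE 0.22, limma adjusted p = 7.48e-08), and lower with BYBX than in GV by a difference of -1.70 (SE 0.25, limma adjusted p = 9.63e-05). All 3 directions held under both other scalings, with values of -4.13 and -2.77 for MII with DMSO minus GV and of 3.38 and 2.09 for BYBX minus DMSO. BYBX minus GV was then -0.75 and -0.68 and no longer passed the threshold (limma adjusted p = 0.055 and 0.0508).

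NOBOX is a homeodomain protein needed for follicles to grow beyond the primordial stage. Nobox (chr6:43303674-43309554, minus strand, 9 exons) was at 435 and 289 FPKM in GV, at 6.61, 6.05 and 7.27 in MII with DMSO, and at 92.2 and 109.9 in MII with BYBX. The 3 groups were separate, with the BYBX libraries between the others. The mean fell from 362 ± 103 (SD, n = 2) to 6.64 ± 0.609 FPKM (SD, n = 3), a fold of 54.5, and was 101 ± 12.5 (SD, n = 2) with BYBX, 15.2 times the DMSO mean. The log2 difference between MII with DMSO and GV was -5.54 (SE 0.26, limma adjusted p = 4.85e-10), and only 1.92% of tested entries had a lower one. BYBX minus DMSO was 3.74 (SE 0.26, limma adjusted p = 9.9e-08), above 98.1% of tested entries. With the same total FPKM the values were -3.76 and 2.94, and with median centring -3.24 and 2.46, each past the threshold.

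LHX8 is a LIM-homeodomain protein that works with FIGLA and SOHLH1 in the same early network. Lhx8 (chr3:154306294-154330659, minus strand, 9 exons) was at 255 and 169.6 FPKM in GV, at 7.23, 4.36 and 6.47 in MII with DMSO, and at 42.0 and 52.8 in MII with BYBX. Again no library of one group lay within the range of another. The means were 212 ± 60.1 (SD, n = 2), 6.02 ± 1.48 (SD, n = 3) and 47.4 ± 7.65 FPKM (SD, n = 2), a decrease of 35.2-fold from GV to MII with DMSO and a level 7.88 times higher with BYBX than with DMSO. The log2 differences were -4.92 (SE 0.28, limma adjusted p = 1.96e-09) and 2.80 (SE 0.28, limma adjusted p = 1.94e-06), with 4.11% and 93.7% of entries lower. They were -3.15 and 2.02 at the same total FPKM and -2.61 and 1.52 with median centring. With BYBX the mean was 4.47-fold lower than in GV, a log2 difference of -2.12 (SE 0.31, limma adjusted p = 0.000105) with only 2.39% of tested entries lower.

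**Figure D3:**
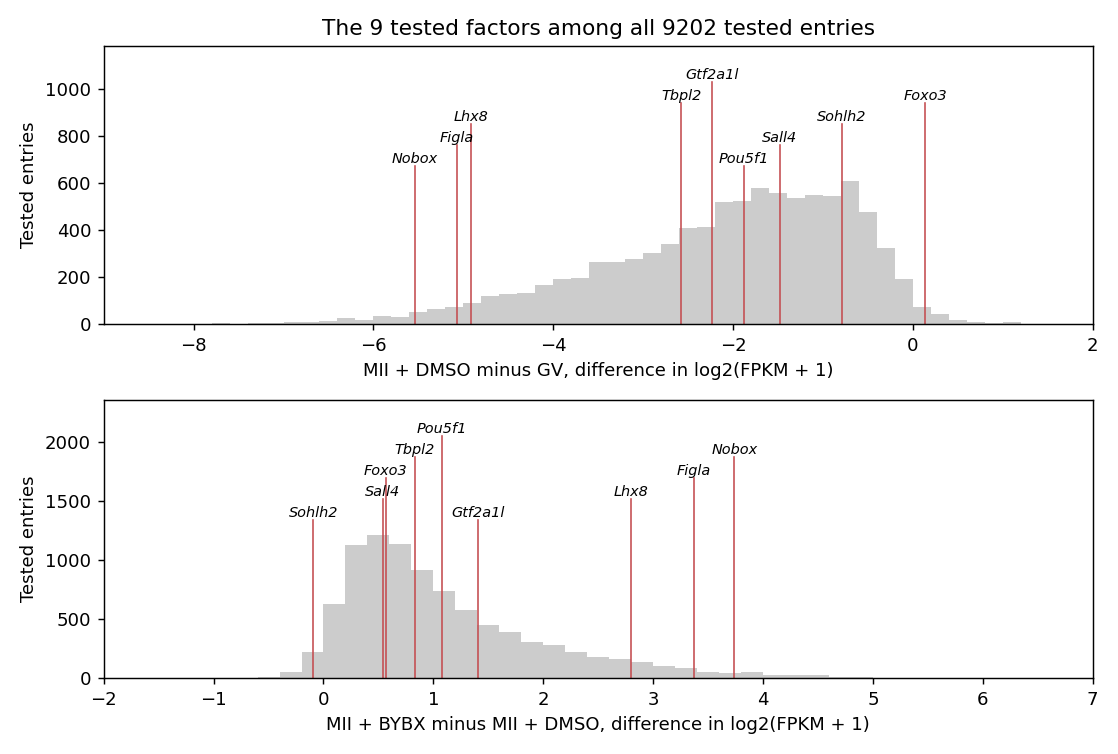
Histograms of the difference in log2(FPKM + 1) over all 9202 tested entries for MII with DMSO minus GV (upper) and MII with BYBX minus MII with DMSO (lower), with the 9 tested factors as labelled lines on the deposited scale. Nobox, Figla and Lhx8 lie in the left tail of the upper panel, with 1.92%, 3.50% and 4.11% of entries lower, and in the right tail of the lower panel, while Foxo3 is at the right edge of the upper panel and Sohlh2 at the left edge of the lower one.

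TBPL2, also called TBP2 or TRF3, takes the place of the TATA-binding protein at core promoters of growing oocytes, and GTF2A1L, also called ALF, is the germ-cell form of the large TFIIA subunit that works with it. Tbpl2 (chr2:24071721-24096595, minus strand, 7 exons) was at 25.1 and 23.2 FPKM in GV, at 3.99, 2.65 and 3.09 in MII with DMSO, and at 4.46 and 9.30 in MII with BYBX. Its GV libraries stood above the rest, and the lower BYBX library was close to the highest DMSO library. Tbpl2 fell by 2.58 on the log2 scale in MII with DMSO (SE 0.28, limma adjusted p = 1.09e-06, 31.1% of entries lower), with -0.92 at the same total FPKM and -0.27, no longer past the threshold, with median centring. It was higher with BYBX by 0.83 (SE 0.28, limma adjusted p = 0.02), which is at the median of all tested entries, and -0.45 with median centring. Without BYBX library 2 that difference was 0.38 (limma adjusted p = 0.301), and without DMSO library 2 or 3 it also missed the threshold.

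Gtf2a1l (chr17:88668660-88715152, plus strand, 9 exons) was at 114 and 112 FPKM in GV, at 17.8, 26.3 and 26.7 in MII with DMSO, and at 78.7 and 50.9 in MII with BYBX. The groups did not overlap, and the BYBX libraries were nearer to the GV libraries than those of Figla, Nobox, Lhx8 or Tbpl2 were. The BYBX mean of 64.8 ± 19.6 FPKM (SD, n = 2) was 0.574 of the GV mean, while this share was between 0.224 and 0.289 for the other 4. It was 0.468 for Sohlh2, 0.522 for Sall4, 0.666 for Pou5f1 and 1.82 for Foxo3. BYBX minus GV was -0.82 in Gtf2a1l (limma adjusted p = 0.0289, 59.3% of entries lower), near the median of -0.99 over all tested entries. Gtf2a1l fell by 2.23 on the log2 scale in MII with DMSO (SE 0.28, limma adjusted p = 4.22e-06, 38.8% of entries lower), with -0.38 at the same total FPKM and 0.07 with median centring. It was higher with BYBX than with DMSO by 1.41 (SE 0.28, limma adjusted p = 0.000652, 72.2% of entries lower), with 0.54 and 0.13 under the other scalings, neither past the threshold.

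POU5F1 (OCT4) and SALL4 are factors of pluripotent and germ cells whose transcripts the egg carries into the embryo. Pou5f1 (chr17:35506018-35510772, plus strand, 5 exons) was at 85.9 and 71.6 FPKM in GV and at 15.4, 25.8 and 21.8 in MII with DMSO. It was at 80.6 FPKM in BYBX library 1, within the GV range, and at 24.3 in BYBX library 2, within the DMSO range. Pou5f1 fell by 1.88 on the log2 scale in MII with DMSO (SE 0.40, limma adjusted p = 0.00058, 48.7% of entries lower), with -0.04 at the same total FPKM and 0.42 with median centring. Its BYBX minus DMSO difference of 1.08 (SE 0.40, limma adjusted p = 0.0309, 61.0% of entries lower) rested on BYBX library 1, since without it the value was 0.23 (limma adjusted p = 0.614), and it turned to -0.20 with median centring. Pou5f1 has processed pseudogenes of near-identical sequence. Only uniquely mapped reads were kept, so reads that fit both equally may have been left out. An antisense gene, Gm19553, also overlaps Pou5f1, and these libraries do not keep the strand, so its reads may be included.

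Sall4 (chr2:168748332-168767943, minus strand, 4 exons) was at 520.0 and 463 FPKM in GV, at 161, 166 and 202 in MII with DMSO, and at 276 and 236 in MII with BYBX. It was the highest of the factors in every library, and its 3 groups did not overlap. The means were 491 ± 40.4 (SD, n = 2), 176 ± 22.3 (SD, n = 3) and 256 ± 28.3 FPKM (SD, n = 2). Sall4 fell by 1.48 on the log2 scale in MII with DMSO (SE 0.24, limma adjusted p = 4.62e-05, 60.6% of entries lower), but was 0.40 higher at the same total FPKM and 0.82 higher with median centring. BYBX minus DMSO was 0.54 (SE 0.24, limma adjusted p = 0.0596, 31.9% of entries lower), and -0.35 and -0.74 under the other scalings. A gene on the opposite strand, Gm14261, overlaps Sall4, so its reads may be included.

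FOXO3 holds primordial follicles in the resting state, downstream of PI3K and AKT. Foxo3 (chr10:42181841-42276755, minus strand, 4 exons) was at 4.06 and 2.28 FPKM in GV, at 4.47, 3.64 and 2.57 in MII with DMSO, and at 7.01 and 4.52 in MII with BYBX. The GV and DMSO libraries overlapped, and the lower BYBX library was just above the highest DMSO library. Foxo3 was the tested factor with no lower call in MII with DMSO, at a difference of 0.14 (95% interval -0.45 to 0.73, limma adjusted p = 0.633), above 98.9% of tested entries. At the same total FPKM this was 1.59 (limma adjusted p = 0.000554) and with median centring 2.44 (limma adjusted p = 2.08e-05). BYBX minus DMSO was 0.57 (95% interval -0.03 to 1.16, limma adjusted p = 0.0857, 33.3% of entries lower), with -0.18 and -0.71 under the other scalings. BYBX minus GV was 0.71 (95% interval 0.06 to 1.36, limma adjusted p = 0.0509), above 99.6% of tested entries. This difference passed the threshold when the replicate number was added to the model, as given below.

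**Figure D4:**
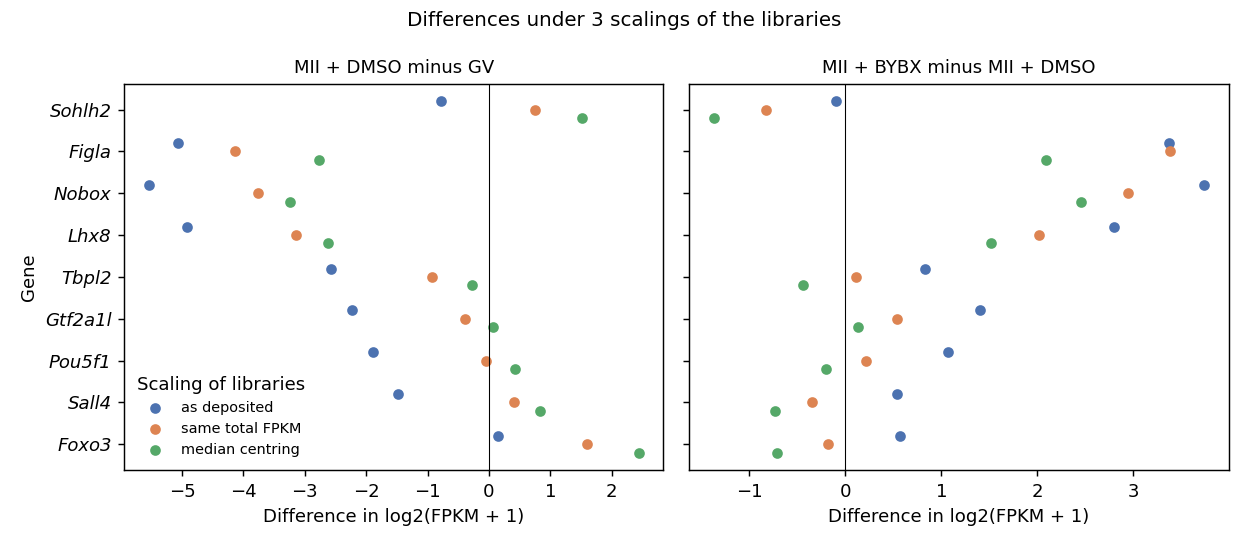
Difference in log2(FPKM + 1) of the 9 tested factors on the deposited scale, with every library set to the same total FPKM, and with each library centred on its median. In MII with DMSO minus GV (left), Figla, Nobox, Lhx8 and Tbpl2 stay below 0 under all 3, and Sohlh2 and Sall4 are below 0 on the deposited scale alone. In BYBX minus DMSO (right), Figla, Nobox, Lhx8 and Gtf2a1l stay above 0 under all 3.

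Ratios between 2 factors in the same library do not depend on how that library was scaled. Sall4 was used as the denominator because it had the highest level in each library. The ratio of Nobox to Sall4 in FPKM was 0.836 and 0.625 in GV, 0.0411, 0.0365 and 0.0360 in MII with DMSO, and 0.334 and 0.465 in MII with BYBX. The ratio of Lhx8 to Sall4 was 0.490 and 0.366, then 0.0450, 0.0263 and 0.0321, then 0.152 and 0.223 in the same order. That of Figla to Sall4 was 0.0618 and 0.0838, then 0.000709, 0.000196 and 0.000460, then 0.0414 and 0.0382. For these 3 factors no group overlapped another, and the BYBX libraries lay between GV and DMSO. The share of all tested entries whose ratio to Sall4 separates in this way was not computed. The ratios therefore show unequal change of Nobox, Lhx8 and Figla against Sall4, and not which of them changed.

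For Gtf2a1l the ratio to Sall4 was 0.219 and 0.241 in GV, 0.111, 0.158 and 0.133 in MII with DMSO, and 0.285 and 0.215 in MII with BYBX. Its DMSO libraries were below the others, and its BYBX and GV libraries overlapped. Pou5f1 to Sall4 was 0.292 in BYBX library 1, above every other library, and 0.103 in BYBX library 2, within the DMSO range of 0.0958 to 0.156. Foxo3 to Sall4 was 0.00781 and 0.00493 in GV and 0.0128 to 0.0278 in the 5 MII libraries, higher in all of them. Sohlh2 to Sall4 averaged 0.0125 in GV, 0.0179 in MII with DMSO and 0.0115 in MII with BYBX, with the DMSO libraries highest. Tbpl2 to Sall4 averaged 0.0492, 0.0187 and 0.0278, and its BYBX libraries, at 0.0161 and 0.0394, overlapped those with DMSO. An exact permutation test of 2 libraries against 3 cannot give a p below 0.1, so no test of these ratios was run.

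**Figure D5:**
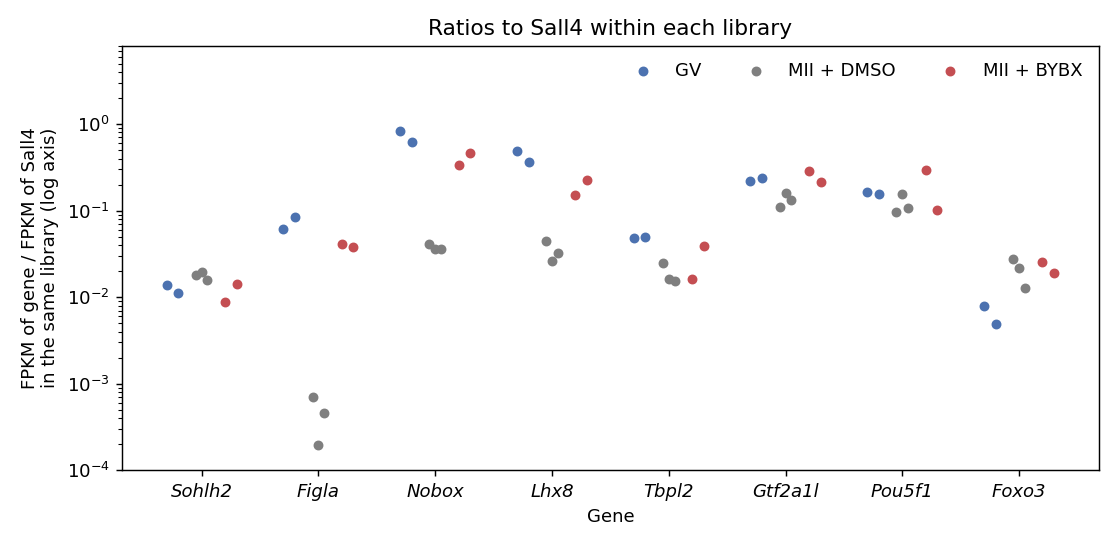
FPKM of each of 8 factors divided by the FPKM of Sall4 in the same library, on a log axis, with 1 point per library of GV, MII with DMSO and MII with BYBX. The ratios of Nobox, Lhx8 and Figla form 3 separate groups, and those of Foxo3 are higher in all MII libraries than in GV. How common this is among all tested entries was not computed.

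The genes whose profile over the 7 libraries was most like that of a factor were listed as a description, by the root mean square difference of log2(FPKM + 1) after centring each profile. The 7 points share the library scaling, which moves most genes together. Adding 1 FPKM before the log compresses values near 0, so genes listed as alike can differ in fold change. Nudt1, at 0.0426 log2 units, was nearest to Figla, followed by Aarsd1 and Glrx5. The mean of Nudt1 was 58.1 FPKM in GV and 0.821 in MII with DMSO, and that of Figla 35.5 and 0.0798. Hspa4, Eif3l and Wdr18 were nearest to Nobox, and Copz1 (0.0927), Vps35l and Ska3 to Lhx8. The nearest to Sohlh2 were Plk4 (0.0755), Map4k5 and Mpv17l, and to Sall4 Sec1 (0.0634), Arhgef12 and Asf1a. Gnl1 (0.0695), Samm50 and 1110008P14Rik were nearest to Gtf2a1l, U2af2 (0.146), Myo18a and Spryd3 to Pou5f1, Zfp938 (0.157), Nanp and B230118H07Rik to Tbpl2, and Ripor1 (0.188), 1700029P11Rik and Rabl2 to Foxo3. Among the factors themselves, Gtf2a1l and Pou5f1 differed by 0.345, Figla and Nobox by 0.347, Sohlh2 and Sall4 by 0.377, and Figla and Lhx8 by 0.397. Foxo3 and Nobox were the farthest apart, at 2.41.

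Genes that act with the factors were taken from lists chosen with earlier results of these data known. Of 12 protein partners and basal factors, 11 were tested, and compared with GV 7 were lower in MII with DMSO and none higher, with a median of -1.76. Over all tested entries, against which this and the following lists are to be read, 88.3% were lower with a median of -1.83, and for BYBX minus DMSO 65.2% were higher with a median of 0.84. Ldb1, a cofactor of LIM-homeodomain proteins, fell by 3.35 (limma adjusted p = 4.43e-07) from a mean of 21.9 to 1.23 FPKM. Tbp, the TATA-binding protein whose place TBPL2 takes, fell by 3.06 (limma adjusted p = 2.17e-08), from 30.0 to 2.71 FPKM. Taf4b, a TFIID subunit of germ cells, fell by 1.89 (limma adjusted p = 3.35e-06). The bHLH partner gene Tcf3 was at 25.3 FPKM in GV and 6.33 in MII with DMSO. Gtf2a2, the small TFIIA subunit, did not pass the test, with means of 91.7, 97.8 and 99.5 FPKM in GV, MII with DMSO and MII with BYBX. Tcf3 and Gtf2a2 were chosen after their values were seen. With BYBX, 6 of the 11 partners were higher than with DMSO and none lower, a share below the 65.2% of all tested entries, among them Ldb1 (2.34, limma adjusted p = 4.56e-05), Tbp (1.38, limma adjusted p = 0.000144) and Gtf2b (1.30, limma adjusted p = 0.00116). The BYBX libraries of Ldb1 were far apart, at 16.5 and 6.10 FPKM. At the same total FPKM 3 partners were lower and 5 higher for DMSO minus GV, and BYBX minus DMSO gave 2 higher and 4 lower. With median centring these were 2 lower and 7 higher, and 1 higher and 6 lower, so the split of this list follows the scaling.

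A list of 15 genes held relatives of the factors in the FOXO, SALL, POU and LIM-homeodomain families and the pluripotency factors Nanog, Sox2, Klf4 and Zscan4c, which were not tested. Of the 15, 5 relatives passed the filter, and 3 of them were lower in MII with DMSO and none higher, with a median of -0.84. Foxo1 fell by 0.99 (limma adjusted p = 0.00771) and Pou2f1 by 0.84 (limma adjusted p = 0.00277), and with the same total FPKM none of the 5 was lower and 4 were higher. No relative passed the test between BYBX and DMSO, where their median was 0.37, but with median centring all 5 were higher in MII with DMSO than in GV and all 5 were lower with BYBX than with DMSO. Without BYBX library 2, 1 of them was higher with BYBX. Of 36 other factors and regulators studied in oocyte formation and arrest, 21 were tested. In MII with DMSO 18 were lower and none higher, with a median of -1.24, and with BYBX 9 of the 21 were higher than with DMSO and none lower, with a median of 0.61, beside 65.2% of all tested entries. Without BYBX library 1 only 4 were higher. Zfp57, a zinc finger protein that maintains genomic imprints, fell by 3.72 (limma adjusted p = 2.15e-08), Ybx2, an RNA-binding protein that stores maternal messages, by 3.42 (limma adjusted p = 1.05e-05), and Ctcf, an insulator protein, fell by 2.26 (limma adjusted p = 1.37e-06). With BYBX, Zfp57 was higher by 2.51 (limma adjusted p = 4.16e-06), Ybx2 by 2.41 (limma adjusted p = 0.000559) and Bnc1 by 0.95 (limma adjusted p = 0.00492). The BYBX libraries of Ybx2 were far apart, at 78.8 and 24.6 FPKM, above the highest DMSO library at 13.9. At the same total FPKM the counts of this list were 4 lower and 6 higher for DMSO minus GV, and 2 higher and 1 lower for BYBX minus DMSO. With median centring they were 1 lower and 16 higher, and 1 higher and 13 lower, so that the direction of most of this list turned.

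All 31 listed genes described as downstream of the factors were tested, and compared with GV 27 were lower in MII with DMSO and none higher, with a median of -2.46, beside 88.3% and -1.83 over all tested entries. The 12 oocyte markers summed above all belong to this list, so the marker sums and these counts are not separate results. The zona pellucida gene Zp3 fell by 5.23 (limma adjusted p = 8.14e-10) from a mean of 2948 to 79.5 FPKM. Ooep and Khdc3, members of the subcortical maternal complex, both fell by 5.39 (limma adjusted p = 4.06e-09 and 3.24e-09), from 1611 to 38.8 and from 1153 to 28.2 FPKM. With BYBX 26 of the 31 were higher than with DMSO and none lower, with a median of 1.15 beside 65.2% and 0.84 over all tested entries, among them Khdc3 by 4.26 (limma adjusted p = 2e-07), Ooep by 3.83 (limma adjusted p = 5.81e-07) and Zp3 by 3.73 (limma adjusted p = 1.18e-07). Compared with GV, 22 of the 31 were lower with BYBX and none higher, with a median of -1.11 beside 69.2% and -0.99 over all tested entries. This count was 13 without GV library 1, and it was 2 lower and 6 higher at the same total FPKM and 3 lower and 7 higher with median centring. At the same total FPKM 17 were lower and 8 higher in MII with DMSO, and with median centring 13 were lower and 9 higher. For BYBX minus DMSO these counts were 14 higher and 5 lower, and 11 higher and 8 lower. Oosp1 was the gene of this list with the smallest difference between MII with DMSO and GV, at means of 1343 and 1379 FPKM, and was chosen after its values were seen.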

How the data were processed

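Smart-seq2 libraries of 10 oocytes each were grouped by their labels as GV (2), MII with DMSO (3) and MII with BYBX (2). The authors trimmed reads with Trim Galore 0.6.7, aligned them to mm10 with HISAT2 2.2.1, kept uniquely mapped reads and computed FPKM with Cufflinks 2.2.1 on UCSC gene models. The deposited FPKM had been scaled by the ERCC spike-in, and libraries of different batches were brought together through their own GV samples. The scaling factors are not given in the sources used here, and the depth is unknown, so the precision is that of 2 or 3 libraries per group.

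Of 25912 entries, 4 with a missing value were left out. R 4.3.3 with limma 3.58.1 (linear models, moderated variances that follow the mean level, tested on simulated data) was used on log2(FPKM + 1). The fit held the 9202 entries that reached 1 FPKM when the 3 group means were averaged, with 7 libraries, 3 group means and 4 residual degrees of freedom. Calls had a Benjamini-Hochberg adjusted p under 0.05. Where all libraries were given the same total, FPKM were rescaled before the log, and in median centring the median log2 value of the tested entries was subtracted. Other alternatives changed the pseudocount, filter, trend, minimum fold, libraries fitted and replicate block, or left out 1 library. Leaving out a BYBX or GV library leaves 1 in its group, which is assumed to vary like the other groups.

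The factors and lists were chosen with earlier results of these data known. Named genes are the 10 factors, up to 3 called genes per related list and comparison with the largest difference among those reaching 5 FPKM in either group, and the 3 genes nearest each factor, except where the text says otherwise. Sequences are from GRCm38 with GENCODE vM21. A further motif match and 1 marker gene are not reported here.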

Additional observations from a re-analysis of the deposited data

How the results depend on the processing

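Of 408 values of single factors under alternatives, 338 kept their direction and side of the threshold, 29 lost and 18 gained a call, and 23 changed direction. Figla, Nobox and Lhx8 kept their direction in all 3 comparisons under every alternative run, and their calls too, except that Figla's call of MII with BYBX minus GV was lost under both other scalings.

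The scaling of the libraries moved most results, and the cause was not tested. In the order same total FPKM and median centring, the factors lower in MII with DMSO than GV numbered 4 and 3 and those higher 3 and 3, those higher with BYBX than with DMSO 3 and 3 and those lower 1 and 3, and those lower with BYBX than in GV 2 and 2 and those higher 1 and 1. For MII with DMSO minus GV, the log2 difference became 0.75 and 1.52 in Sohlh2 and 0.40 and 0.82 in Sall4, and with median centring alone 0.0733 in Gtf2a1l and 0.42 in Pou5f1. For BYBX minus DMSO it became -0.35 and -0.74 in Sall4 and -0.18 and -0.71 in Foxo3, and with median centring alone -0.45 in Tbpl2 and -0.20 in Pou5f1. For BYBX minus GV it became 0.16 and 0.20 in Gtf2a1l, 0.17 and 0.22 in Pou5f1 and 0.0517 and 0.0874 in Sall4, and with median centring alone 0.15 in Sohlh2.

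A minimum of 2-fold left 4 factors lower with BYBX than in GV. With 1 library left out at a time, 0 to 1 factors were higher with BYBX than in GV. That 1 was Foxo3, called without GV library 1, DMSO library 1 or BYBX library 2. Over these fits Foxo3 ranged from -0.17 to 0.45 in MII with DMSO minus GV, Sohlh2 from -0.26 to 0.0773 in BYBX minus DMSO, and Pou5f1 from -1.65 to 0.0388 in BYBX minus GV, where it passed the threshold without BYBX library 1 or DMSO library 1. The call of Gtf2a1l in BYBX minus GV was lost without either GV library or BYBX library 2, and that of Sohlh2 without GV library 1 or BYBX library 1. The call of Pou5f1 in BYBX minus DMSO was also lost without either GV library and in a fit of these 2 groups alone.

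With the replicate block, 1 factor, Foxo3, was higher with BYBX than in GV, and Tbpl2 in BYBX minus DMSO and Gtf2a1l in BYBX minus GV lost their calls (limma adjusted p = 0.0652 and 0.0525). The libraries were not taken as paired, since nothing states what a number marks and no comparison has 3 pairs. Their deviations from the group means correlated at 0.487 and 0.282 for GV with DMSO, both positive, and at -0.33 for GV with BYBX and -0.601 and -0.348 for DMSO with BYBX. A crossed pairing of GV and BYBX, added after seeing the data, also gave 1 factor higher.

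With runs of at least 2 G, 9 factors held the rG4 motif. With the Pearson correlation as the measure of likeness, 5 of the 27 nearest genes were shared. The unknown depth limits Figla in MII with DMSO and Sohlh1 in all groups.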
